A study of Helianthus annuus with 12 samples.

Results

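The sunflower genes gene43647 and gene32827 are both described in the deposited annotation as putative organ specific protein. They were chosen as the 2 genes with that description, out of 48882 genes with expression values, whose level was high in seeds of the cultivar 86-1 and near 0 in seeds of the cultivar L-1-OL-1. They were selected on their FPKM in both cultivars, so the cultivar difference of the pair is described here and not tested. The same kind of description stands on 10 genes in all, and the other 8 are used for comparison. The annotation table analysed here holds 65535 lines and gives no description for 2925 of the 48882 genes, so further genes of the family may be missing. Seeds (Helianthus annuus) were collected 17 and 27 days after flowering (DAF) from both cultivars, which gives 4 groups of 3 libraries. The series was set up to compare seed development in sunflowers of high and low oleic acid content. Its labels describe rapid gain of oleic acid at 17 DAF and a steadier content at 27 DAF. They name no treatment, and which of the cultivars is the one rich in oleic acid is not labelled. Replicates are not labelled as separate plants, and p-values therefore describe the spread among these libraries, which may be technical. The tissue is given as seed, with no dissection stated. In such bulk samples fewer cells of a type and less RNA per cell cannot be told apart.

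Organ-specific proteins are small proteins of flowering plants. The family was named in pea, from transcripts that were abundant in some organs and scarce in others, and the names P4 and S2 in the sunflower descriptions go back to that work. Their biochemical function is not established, and they have no known place in oil synthesis. In the authors' deposited table the best database match of gene43647 is a sunflower protein, with 108 of 108 aligned residues identical, and that of gene32827 is another sunflower protein, with 143 of 143 identical. The identifiers of the best matches, of the pair as of all 10 genes of the family, were not found among those of the RefSeq sunflower genes. The proteins themselves were not searched for there, so no position or sequence is given.

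Levels are FPKM, fragment counts scaled by gene length and library size, as deposited. Their totals ran from 605655 to 683903 per library, and 34199 to 39782 genes were above 0. Read numbers are unknown. Replicate 1 of L-1-OL-1 at 17 DAF stood apart. Across tested genes it had Pearson's r of 0.784 and 0.861 with the other libraries of its group and 0.833 to 0.860 with those of 86-1 at 17 DAF, while libraries within the other groups had 0.931 to 0.974 (genes are not independent replicates). Seed storage protein genes took 31.0% of its FPKM total, against 18.5% and 0.963% in replicates 2 and 3. Replicate 1 of 86-1 at 17 DAF likewise held 31.5% storage protein FPKM, against 9.63% and 9.22% in replicates 2 and 3.

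gene43647 was the more abundant of the pair. In 86-1 at 17 DAF its level was 78.2, 302 and 255 FPKM in replicates 1, 2 and 3 (212 ± 118, SD, n = 3). At 27 DAF the same cultivar had 29.9, 38.0 and 32.0 FPKM (33.3 ± 4.22, SD, n = 3). Every 86-1 library at 17 DAF was therefore above every one at 27 DAF, and replicate 1 was the lowest at 17 DAF. L-1-OL-1 libraries at 17 DAF held 2.22 FPKM in replicate 1 and 0.128 in replicate 2, and the gene was listed at 0 in replicate 3. At 27 DAF it was listed at 0 in all 3 libraries of L-1-OL-1. Among all genes of a library, ordered from the highest FPKM, it ranked 286 to 853 in 86-1 at 17 DAF and 1811 to 2908 at 27 DAF.

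gene32827 had 36.5, 165 and 159.8 FPKM in replicates 1, 2 and 3 of 86-1 at 17 DAF (120.3 ± 72.6, SD, n = 3). At 27 DAF it had 5.42, 6.0 and 10.8 FPKM (7.42 ± 2.97, SD, n = 3). The stages again did not overlap, and replicate 1 was again the lowest at 17 DAF. In L-1-OL-1 its level was 0.740, 0.0843 and 0.133 FPKM at 17 DAF, with replicate 1 the highest. It was 0, 0.106 and 0.0921 FPKM at 27 DAF. Its rank in 86-1 moved from 604 to 1897 at 17 DAF to 8593 to 11398 at 27 DAF.

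**Figure D1:**
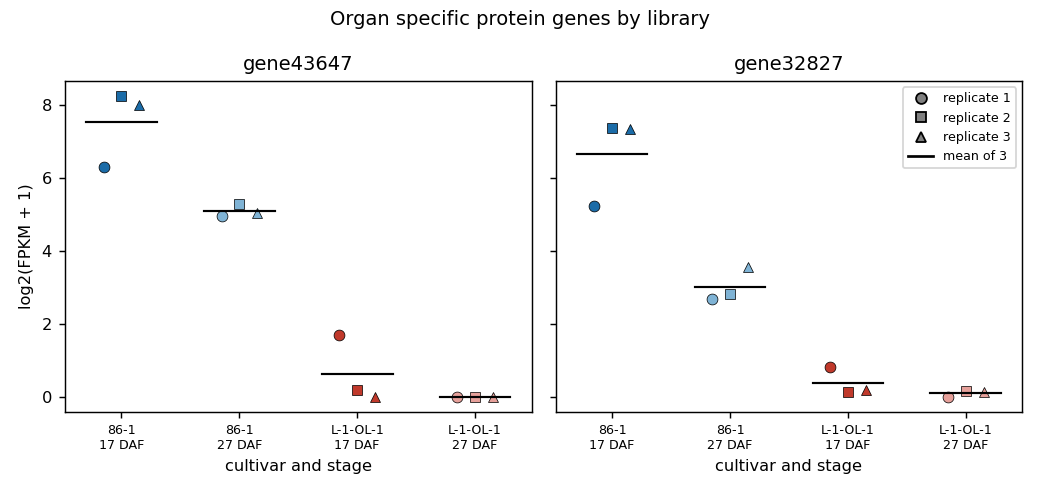
Level of gene43647 (left) and gene32827 (right) in each of the 12 libraries, as log2(FPKM + 1) on the vertical axis, by cultivar and stage; symbols are replicates and lines are means of 3. All 6 libraries of 86-1 lie above all 6 of L-1-OL-1, and in 86-1 the 17 DAF libraries lie above those of 27 DAF.

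For both genes all 6 libraries of 86-1 were above all 6 of L-1-OL-1. The same held for 6.09% of the 30020 tested genes, and for the pair it follows from how they were chosen. The mean of gene43647 at 17 DAF was 270.0 times higher in 86-1, and that of gene32827 was 377 times higher. At 27 DAF the mean of gene32827 was 112 times higher in 86-1, while no ratio is given for gene43647, which was listed at 0 in L-1-OL-1. Without replicate 1 of L-1-OL-1 at 17 DAF, its remaining libraries at that stage had at most 0.128 FPKM of gene43647 and 0.133 of gene32827. In the order of group means both genes ran from 86-1 at 17 DAF through 86-1 at 27 DAF and L-1-OL-1 at 17 DAF to L-1-OL-1 at 27 DAF. Only the last step had overlapping libraries.

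A mean of at least 5 FPKM at both stages of 86-1 and under 1 FPKM at both stages of L-1-OL-1, limits set after the values were seen, was met by 240 genes of the whole table. The reverse pattern was met by 383 genes. Of the 10 organ specific protein genes only the pair was among the 240. These limits restate the choice of the pair, so this follows from it. By mean level at 17 DAF gene43647 and gene32827 ranked 1 and 2 of these 240 genes, and at 27 DAF they ranked 15 and 163. The choice also used the level in 86-1, so the ranks are only a description. Of the 240 genes, 146 had their highest L-1-OL-1 level at 17 DAF in replicate 1, as had 25.3% of all tested genes.

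The change between stages was tested with limma on log2(FPKM + 1) across all 30020 genes. The pair was chosen on levels and not on this change, but those levels include the 86-1 values tested here. A high level in 86-1 may favour genes that keep one at 27 DAF, or genes with a peak at 17 DAF. The p-values and shares below for the pair are therefore not independent of the choice. Both genes fell from 17 to 27 DAF in 86-1. For gene43647 the mean dropped 6.35 times, leaving 15.7% of the 17 DAF level (log2 difference -2.42 ± 0.50, SE, limma adjusted p = 0.00645). For gene32827 it dropped 16.2 times, leaving 6.16% (-3.63 ± 0.49, limma adjusted p = 0.000608). In this comparison 14.1% of tested genes were called lower at 27 DAF and 4.62% higher, and the median gene had a difference of -0.20. Every 17 DAF library was above every 27 DAF library of 86-1 for 22.9% of tested genes. Only 2.17% of tested genes had a difference as low as gene43647 or lower, and 0.676% had one as low as gene32827.

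Rescaling moved the median of all genes in 86-1 to -0.02 (median-of-ratios) or 0.000272 (quantile normalization), and the part of all called genes that was higher from 24.6% to 45.1% or 51.1%. The differences of gene43647 were then -2.15 and -1.97 and those of gene32827 were -3.38 and -3.28, all still called. The call of gene43647 was lost with a pseudocount of 0.1 (-2.45, limma adjusted p = 0.0856). Without replicate 1 of 86-1 at 17 DAF, which held the lowest value of both genes, the differences were larger at -3.03 and -4.33.

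In L-1-OL-1 neither gene passed the test between stages. The difference was -0.62 ± 0.50 for gene43647 (limma adjusted p = 0.342) and -0.27 ± 0.49 for gene32827 (limma adjusted p = 0.691), where 22.3% of tested genes were called lower and 47.8% of the calls were higher (59.6% with quantile normalization). The choice of the pair holds its levels near 0 in this cultivar and leaves room only for small differences. The stage difference in 86-1 minus that in L-1-OL-1 therefore mostly repeats the fall in 86-1 and is given for the pair as a description. It was -3.35 ± 0.69 for gene32827 and -1.80 ± 0.71 for gene43647. For gene43647 it was -2.41 without replicate 1 of 86-1 at 17 DAF and -2.34 without replicate 1 of L-1-OL-1 at 17 DAF. It was smaller with a lower pseudocount, at -1.51 with 0.5 and -0.54 with 0.1, so its size depends on the pseudocount. Of all tested genes 13.6% were called negative and 8.5% positive in this difference, with a median of -0.23, and the positive share of the calls was 38.5% (48.8% with median-of-ratios scaling).

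Transcripts of other seed processes were set beside the pair in the same libraries of 86-1, where 4.62% of all tested genes were called higher at 27 DAF and 14.1% lower. Late embryogenesis abundant (LEA) proteins protect the drying seed. Their 88 genes took 0.339% to 0.526% of FPKM at 17 DAF and 2.02% to 3.73% at 27 DAF, and 22 of the 63 tested genes were called higher and 6 lower. The 17 oil body genes (oleosins and caleosins, which coat oil droplets) took 1.32% to 2.42% and then 4.63% to 6.19%, with 8 of 16 tested genes higher and 1 lower. The 53 seed storage genes took 9.22% to 31.5% and then 10.4% to 34.4%, ranges that overlap, with 8 of 41 tested genes higher and 3 lower. Genes of secondary walls, as in the hull (laccases, cinnamyl alcohol dehydrogenases, fasciclin-like proteins and cellulose synthases), took 0.0726% to 0.127% and then 0.0429% to 0.0625%, with 12 of 41 tested genes lower and 3 higher. The 100 photosynthesis genes took 0.0116% to 0.0211% and then 0.0241% to 0.0562%, with 3 of 59 tested genes higher, a share near that of all genes, and 0 lower. The part of these transcripts in the fall of the pair was not tested. No gene of these lists was listed at 0 in all 12 libraries. In L-1-OL-1 the secondary wall share was 0.0463% to 0.0865% at 17 DAF and 0.0241% to 0.0349% at 27 DAF. The seed storage share there was 0.963% to 31.0% and then 0.853% to 2.75%. The oil body share was 1.99% to 2.48% and then 2.16% to 2.38%. LEA genes took 0.482% to 3.76% and then 4.70% to 6.79%. Photosynthesis genes took 0.0155% to 0.156% and then 0.0243% to 0.0565%.

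The levels of the pair differed from each other in every 86-1 library, and FPKM allows this comparison because it is per gene length. The ratio of gene43647 to gene32827 was 2.14, 1.83 and 1.60 in replicates 1, 2 and 3 at 17 DAF. At 27 DAF it was 5.52, 6.34 and 2.95. All 6 ratios were above 1, and the 3 ratios at 27 DAF were all above those at 17 DAF. With a pseudocount of 1 the mean log2 ratio over the 6 libraries was 1.47 ± 0.75 (SD, n = 6; exact sign-flip permutation test, 2-sided p = 0.03125, the smallest it can give). The mean log2 ratio was 0.87 ± 0.20 at 17 DAF and 2.08 ± 0.53 at 27 DAF (SD, n = 3 each). The difference of 1.202 had an exact permutation p = 0.1 (2-sided), the smallest that 3 against 3 libraries allow. Over the 6 libraries of 86-1 the levels of the pair had Pearson's r of 0.981 and Spearman's rho of 0.943 on the log2 scale. With other organ specific protein genes r was higher in some cases (gene32827 with Helianthus_annuus_newGene_10335 0.998, gene43647 with gene30576 0.995). It was lower in others (gene78923 with gene32827 0.275 and with gene43647 0.144). Ordered by r with gene32827 over these 6 libraries, gene43647 was in place 596. These correlations are a description, since the libraries share the split between stages.

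**Figure D2:**
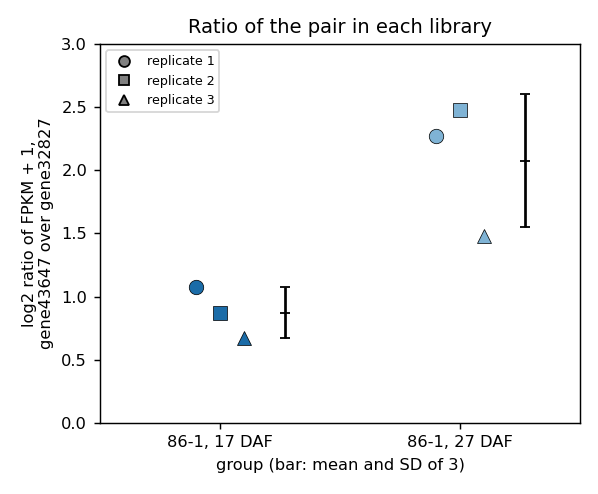
Log2 ratio of gene43647 to gene32827 (FPKM + 1) in each library of 86-1 at 17 and 27 DAF; symbols are replicates and bars give the mean and SD of 3. The ratios at 17 DAF lie between 0.67 and 1.08, and those at 27 DAF lie between 1.48 and 2.48.

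The other 8 organ specific protein genes had not been chosen for their levels. At 17 DAF, 7 of these 8 were higher in 86-1 and 1 was lower, where 15.6% of tested genes were called higher and 11.4% lower. The libraries of the cultivars did not overlap for the same 7, against 17.7% of tested genes with all 86-1 libraries higher. The list itself was read from the annotation with earlier results of these data known. All 10 genes passed the filter on low values, but only 2 of them reached 1 FPKM in at least 3 libraries of L-1-OL-1, and the rest entered through 86-1.

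Among the 8, gene58361 and Helianthus_annuus_newGene_33495 had levels at 17 DAF in 86-1 that overlapped those of the pair. gene58361 had 54.7, 192 and 221 FPKM there, and 1.76, 1.62 and 1.84 FPKM in L-1-OL-1 (log2 difference 5.61 ± 0.60, limma adjusted p = 2.61e-05). Helianthus_annuus_newGene_33495 had 27.3, 201 and 227 FPKM in 86-1 and 1.96, 0 and 0.147 in L-1-OL-1 (6.18 ± 0.69, limma adjusted p = 3.65e-05). Replicate 1 again held the lowest 86-1 value, and the cultivars did not overlap. Both genes fell by 27 DAF. gene58361 had 0.256, 0.867 and 6.04 FPKM in 86-1 at 27 DAF (stage difference -5.71 ± 0.60, limma adjusted p = 0.000133). Helianthus_annuus_newGene_33495 had 0.210, 0.366 and 1.93 FPKM (-6.01 ± 0.69, limma adjusted p = 0.000235). Helianthus_annuus_newGene_33495 passed the filter on low values only with 86-1 at 17 DAF counted, so a lower level elsewhere was partly built in. With no filter its stage difference in 86-1 had a limma adjusted p of 0.00138. The means left at 27 DAF were 1.53% and 0.551% of those at 17 DAF, against 15.7% for gene43647 and 6.16% for gene32827. In each library of 86-1 the log2 ratio of gene43647 to gene58361 was 0.21 to 0.65 at 17 DAF and 2.23 to 4.62 at 27 DAF. That of gene43647 to Helianthus_annuus_newGene_33495 was 0.17 to 1.48 and then 3.49 to 4.84. These pairs were picked after their values were seen, and the difference was not tested. The choice of gene43647 and gene32827 for high levels in 86-1 may itself have favoured genes with more left at 27 DAF.

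A second set of 3 genes reached at most 19.0 FPKM. gene30576 and gene30577 share 1 best database match, a protein of the cardoon Cynara cardunculus, so reads of these copies may have been divided between them. In 86-1 at 17 DAF gene30576 had 2.27, 14.6 and 10.4 FPKM and gene30577 had 4.05, 19.0 and 13.97 FPKM. Helianthus_annuus_newGene_10335, described as P4-like, had 4.06, 18.2 and 14.4 FPKM. In the other 9 libraries none of the 3 was above 0.826 FPKM. These 3 genes passed the filter on low values only through 86-1 at 17 DAF, so a lower level in the other groups was built in. Their stage differences in 86-1 were -2.99 ± 0.42, -3.35 ± 0.39 and -3.06 ± 0.41. In the fit with no filter, which makes no such choice, the limma adjusted p was 0.00329 for gene30576, 0.00130 for gene30577 and 0.00249 for Helianthus_annuus_newGene_10335.

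Of the last 3 genes, gene78527, described as S2, was low throughout, with 2.05, 4.68 and 3.35 FPKM in 86-1 at 17 DAF and 0.927, 0 and 0.0999 in L-1-OL-1 (1.72 ± 0.46, limma adjusted p = 0.0150). It too passed the filter on low values only with 86-1 at 17 DAF counted. Its call was lost without replicate 2 of 86-1 (limma adjusted p = 0.0697) or without replicate 2 or 3 of L-1-OL-1 at 17 DAF (0.065 and 0.0524). Its stage difference in 86-1 did not pass (-1.29 ± 0.46, limma adjusted p = 0.0725), and it passed without replicate 3 at 27 DAF (-1.93, 0.00388) or without replicate 1 of L-1-OL-1 at 17 DAF (limma adjusted p = 0.047). gene78923 did not pass between stages in 86-1, with 7.82, 4.74 and 2.82 FPKM at 17 DAF and 2.30, 2.74 and 5.16 FPKM at 27 DAF (-0.45 ± 0.36, limma adjusted p = 0.455). It was the only one of the 8 called higher in 86-1 at 27 DAF (2.08 ± 0.36, limma adjusted p = 0.000466), where 21.2% of tested genes were called higher. It was also the only one of the 10 called between stages in L-1-OL-1 (-1.07 ± 0.36, limma adjusted p = 0.0310). That call was lost without replicate 1 of that cultivar at 17 DAF (limma adjusted p = 0.102) and without any 1 library of it at 27 DAF (0.0711 to 0.0749), as it was with no filter, median-of-ratios scaling or quantile normalization (0.0619, 0.0527 and 0.102). At 17 DAF its cultivar difference was 1.47 ± 0.36 (limma adjusted p = 0.00904), lost when only the libraries of that stage were fitted (limma adjusted p = 0.0506).

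gene18131 ran the other way. It had 0.757, 1.74 and 1.13 FPKM in 86-1 at 17 DAF and 9.56, 58.6 and 47.5 in L-1-OL-1 (-3.85 ± 0.89, limma adjusted p = 0.00654). At 27 DAF it had 5.46, 2.64 and 26.4 FPKM in 86-1 and 23.5, 3.13 and 2.10 in L-1-OL-1, where the libraries overlapped (0.35 ± 0.89, limma adjusted p = 0.774; -0.49 without replicate 3 of 86-1). Its stage differences were 1.99 ± 0.89 in 86-1 (limma adjusted p = 0.149) and -2.20 ± 0.89 in L-1-OL-1 (limma adjusted p = 0.0632). Their difference was 4.19 ± 1.26 (limma adjusted p = 0.0332), a call that was lost in 9 of the 12 fits without 1 library.

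**Figure D3:**
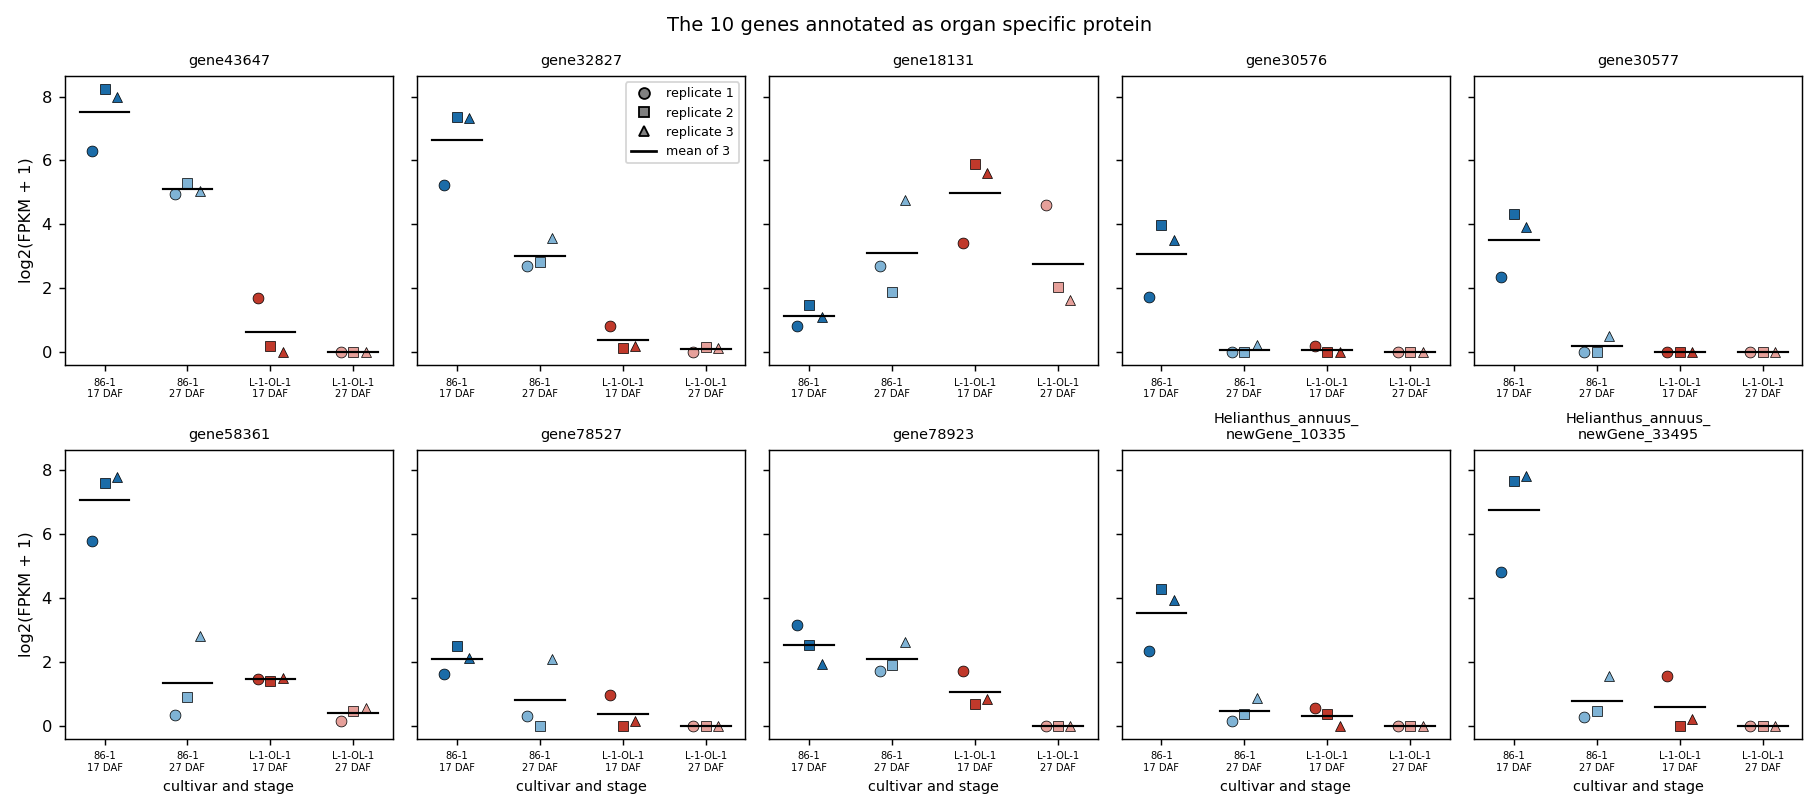
Level of each of the 10 organ specific protein genes in the 12 libraries, as log2(FPKM + 1), by cultivar and stage; symbols are replicates and lines are means of 3. The genes gene43647 and gene32827 keep levels of 29.9 to 38.0 and 5.42 to 10.8 FPKM in 86-1 at 27 DAF, gene58361 and Helianthus_annuus_newGene_33495 are near 0 there in most libraries, and gene18131 is highest in L-1-OL-1 at 17 DAF.

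Over the 10 genes, 7 were called lower at 27 DAF in 86-1 and 0 higher by limma (8 lower and 1 higher at an unadjusted p under 0.05), beside 14.1% and 4.62% of all tested genes, with a median log2 difference of -3.03 against -0.20 for all tested genes. These 7 were the pair, gene58361, both newGene genes, gene30576 and gene30577. Of them gene30576, gene30577 and both newGene genes entered the test only through 86-1 at 17 DAF. In L-1-OL-1 1 was called lower and 0 higher (2 and 0 at an unadjusted p under 0.05), with a median of -0.47 against -0.00125. Of all 30020 tested genes 22.3% were called lower there and 6119 genes higher. The 86-1 libraries at 27 DAF lay above those of L-1-OL-1 for 3 of the other 8 genes, gene78923 and both newGene genes, against 29.5% of tested genes. Summed over the 10 genes, the level in 86-1 was 218, 922 and 909 FPKM at 17 DAF and 43.9, 50.9 and 86.9 FPKM at 27 DAF. The pair made up 52.7%, 50.5% and 45.7% of that sum at 17 DAF and 80.5%, 86.5% and 49.2% at 27 DAF. In replicate 3 at 27 DAF, where the share of the pair was the lowest of that stage, gene18131 supplied 26.4 FPKM. In L-1-OL-1 the sum was 20.05, 61.2 and 50.5 FPKM at 17 DAF and 23.6, 3.61 and 2.65 at 27 DAF. In replicate 1 at 17 DAF gene18131 supplied 9.56 FPKM of it, and in the other 5 libraries it supplied most of the sum.

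**Figure D4:**
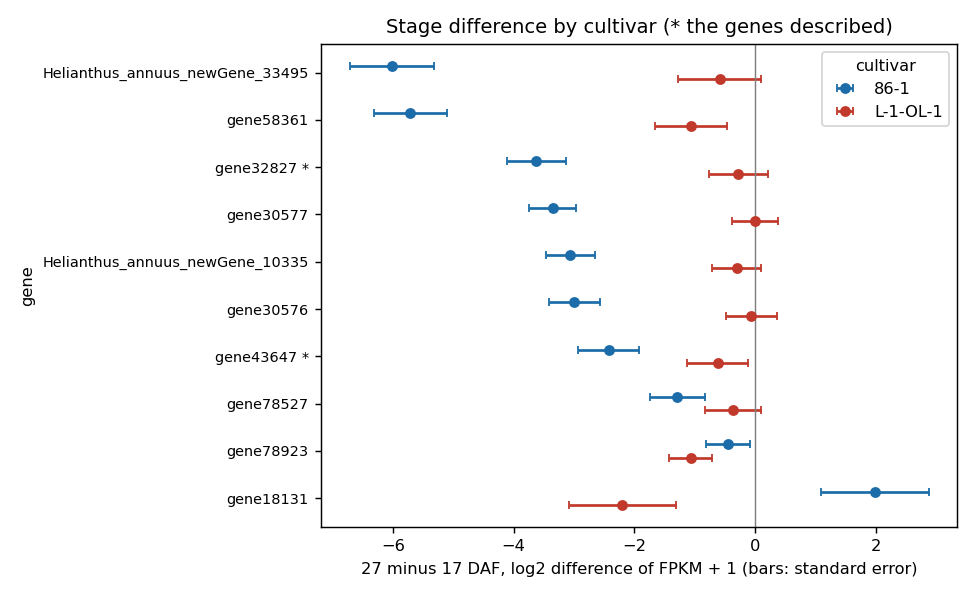
Log2 difference of FPKM + 1 between 27 and 17 DAF (horizontal axis) for the 10 genes (vertical axis) in 86-1 and L-1-OL-1; points are limma estimates, bars are standard errors, and asterisks mark gene43647 and gene32827. In 86-1 the estimates run from -6.01 to 1.99, and in L-1-OL-1 they run from -2.20 to 0.

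Replicate 1 of 86-1 at 17 DAF was the lowest of its group for 9 of the 10 genes, as it was for 77.3% of all tested genes. Both other libraries were at least 2 times above it for 7 of the 10, which held for 18.2% of tested genes. Genes tied at 0 in these libraries may be counted in both shares of tested genes. The mean of replicates 2 and 3 was 3.56 times replicate 1 for gene43647, 4.44 times for gene32827 and 7.84 times for Helianthus_annuus_newGene_33495. For gene78923 it was 0.483 times. Replicate 1 of L-1-OL-1 at 17 DAF was the highest of its group for 7 of the 10 genes, against 25.3% of tested genes, a share that may also count genes tied at 0. The high storage protein share of both libraries is given above, and its part in these values was not tested.

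The genes with the profile most like each of the pair were taken by Pearson's r of log2(FPKM + 1) over the 12 libraries, among 10851 tested genes with a group mean of at least 10 FPKM and a description that names a protein. Closest to gene43647 were the adenylyl cyclase-associated protein gene71624 (r of 0.991), the aspartyl protease gene25744 (0.987), the ferredoxin gene3470 (0.985), the ribosomal protein gene63941 (0.985) and the GDSL-type lipase gene16652 (0.981). They were followed by Helianthus_annuus_newGene_1674 with a reverse transcriptase domain (0.979), the augmin-like subunit gene48822 (0.977) and the O-methyltransferase gene52064 (0.974). The ferredoxin gene3470, an electron carrier by its description, was the most abundant of them, with 106 ± 28.5 and 31.9 ± 3.29 FPKM in 86-1 at 17 and 27 DAF and 2.92 ± 1.25 and 2.43 ± 1.502 in L-1-OL-1 (SD, n = 3 each).

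Closest to gene32827 were the copper-binding cupredoxin gene28840 (r of 0.988), the glycoside hydrolase gene28944 of the family that holds invertases (0.984) and gene18476 with a gnk2-like domain (0.982). The phosphodiesterase gene43061 (0.974), the cystatin gene13605, a type of protease inhibitor (0.974), the omega-3 fatty acid desaturase gene30216, whose type of enzyme makes linolenic chains (0.973), and the potassium channel gene58001 (0.969) came next, and gene43647 itself was in place 8 (0.968). The hydrolase gene28944 had 109 ± 54.4 and 7.27 ± 2.46 FPKM in 86-1 at 17 and 27 DAF and 1.46 ± 2.01 and 0 in L-1-OL-1 (SD, n = 3 each). The desaturase gene30216 had 24.5 ± 16.8 and 1.63 ± 0.626 FPKM in 86-1 and 0.431 ± 0.315 and 0.152 ± 0.112 in L-1-OL-1. The lists of 8 shared 0 genes, and beside the pair 0 organ specific protein genes were in them. These correlations describe 12 libraries that share the split by cultivar and stage. Over the 6 libraries of 86-1 alone, 0 of the 8 genes stayed among the 8 closest for either gene.

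**Figure D5:**
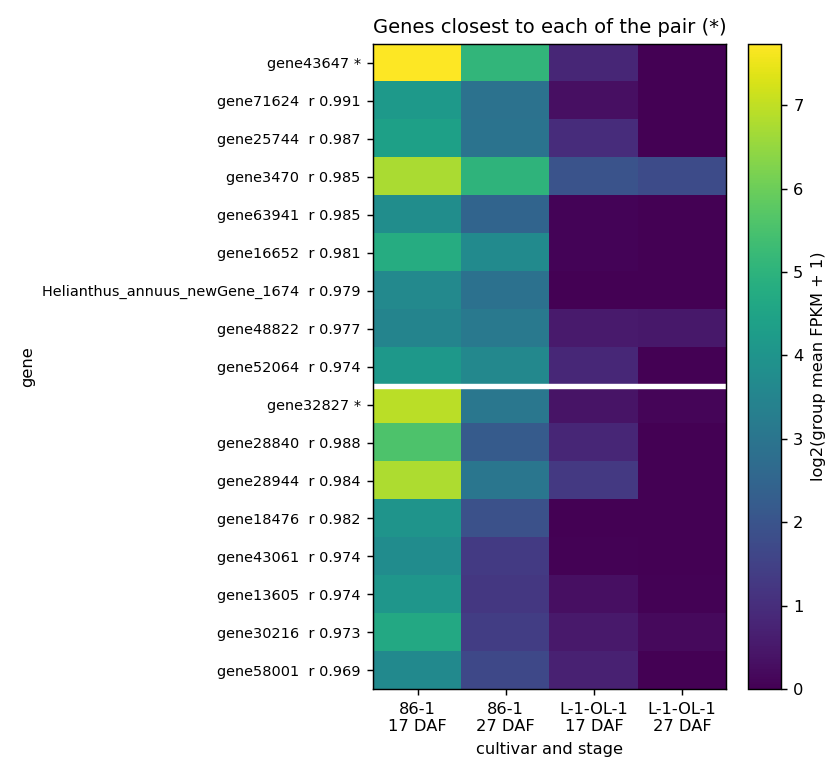
Group means as log2(mean FPKM + 1), coloured from 0 upward, for gene43647 and gene32827 (asterisks) and the genes with the most similar profile, with Pearson's r over 12 libraries beside each name. All rows are highest in 86-1 at 17 DAF, and the 7 genes under gene32827 lose more by 27 DAF than the 8 under gene43647. This difference follows at least in part from the choice by likeness, since gene32827 itself loses more than gene43647.

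The tested genes with the nearest identifier numbers, 3 on each side of each of the pair, are given as a description. No source used here states whether these numbers follow the order on the chromosomes. Of these 12 genes, 11 had a mean of at least 1 FPKM in all 4 groups. Between the cultivars 3 were called at 17 DAF and 6 at 27 DAF, where 27% and 48.3% of all tested genes were called. In 86-1, 1 was called lower at 27 DAF, beside 14.1% of all tested genes. The gene under 1 FPKM in a group was gene32816, described as a 2-oxoisovalerate dehydrogenase subunit, an enzyme of branched-chain amino acid breakdown. It had 13.5 and 9.96 FPKM in 86-1 at 17 and 27 DAF and 2.97 and 0.0136 FPKM in L-1-OL-1 (group means). The F-box protein gene32819 was higher in L-1-OL-1, with 4.19 and 25.6 FPKM in 86-1 and 45.1 and 192 FPKM in L-1-OL-1. It was also called higher at 27 DAF in 86-1 (2.25, limma adjusted p = 0.00286), beside 4.62% of all tested genes.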

How the data were processed

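RNA of 12 seed samples was sequenced on an Illumina NovaSeq, per the labels' protocols. The authors deposited 1 FPKM value per gene and library. The submitters' processing notes list RSEM 1.2.12, HISAT2 2.0.4, DESeq2 1.4.5 and Bowtie2 2.2.5 but no roles, and no source used here names the genome build. In the deposited annotation each gene has a best protein hit with a score and an E-value, and these were not used further.

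Tests across genes used limma 3.58.1 (R 4.3.3) on log2(FPKM + 1), which understates changes of low values. The 30020 genes with at least 1 FPKM in at least 3 of 12 libraries were tested, in 1 fit with a mean per group and a mean-variance trend. P-values are 2-sided, with Benjamini-Hochberg adjustment across all 30020 genes and a threshold of 0.05. The fit was also run on simulated normal log2 values in which 200 genes changed, far fewer than were called here. That run does not measure the error rates in these data, and no result rests on it. The cultivar difference of the pair was not tested, because it chose them. Exact permutation tests used scipy 1.17.1. Low FPKM values gave no firm relative depth (the commonest step ratio between libraries held 4.13% to 5.69% of low genes), so no counting interval is given, and reads shared between related genes may have been split.

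Named genes are the pair, every gene described as organ specific or organ-specific, the 8 tested genes with the most similar profile to each, and the 3 tested genes on either side by identifier number. The members, lists, tests and rule were chosen with earlier results of these data known. Alternatives changed the pseudocount, filter, scaling, trend, libraries and replicate block. The fit without both first replicates at 17 DAF was chosen after seeing the data.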

Additional observations from a re-analysis of the deposited data

Results flagged for a closer look

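For 7 of the 10 organ specific protein genes the stage difference in 86-1 differed from that in L-1-OL-1 by limma's test of the difference itself, beside 13.6% of all tested genes with a negative call and 8.5% with a positive one. The value was -3.35 for gene32827, where the choice of the gene holds its level in L-1-OL-1 near 0 and the value is no independent result; its call was lost with a pseudocount of 0.1. It was -4.65 for gene58361 (limma adjusted p = 0.00312) and -5.43 for Helianthus_annuus_newGene_33495 (limma adjusted p = 0.00301). It was -2.93 for gene30576, -3.35 for gene30577 and -2.76 for Helianthus_annuus_newGene_10335. These genes, and Helianthus_annuus_newGene_33495, passed the filter on low values only through 86-1 at 17 DAF. The call of Helianthus_annuus_newGene_10335 was lost with a pseudocount of 0.1 (limma adjusted p = 0.0558). For gene18131 it was 4.19 (limma adjusted p = 0.0332), a call that was lost in 11 of 21 alternatives. In the 6 genes with negative values the level in L-1-OL-1 was at most 1.96 FPKM at both stages, which limits its stage difference on this scale. With 3 libraries a group, no gene's values were searched for a single outlying library.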

How the results depend on the processing

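The fall in 86-1 kept its sign and call for gene32827 under all alternatives run, and for gene43647 under all but a pseudocount of 0.1 (-2.45). With that pseudocount the difference of stage differences of gene32827 was -2.72 and not called. That of gene43647, which was not called in the main fit either, was -0.54. With the same pseudocount 2 of the other 8 genes were called between cultivars at 27 DAF. With a mean of at least 5 FPKM as filter 2820, 7112 and 3632 genes were called (stage in 86-1, stage in L-1-OL-1, their difference), with 4, 0 and 4 of the family. Of the family this filter kept only the pair, gene18131, gene58361 and Helianthus_annuus_newGene_33495, and the rest were not tested. Between cultivars 3 and 0 of the other genes it kept were called at 17 and 27 DAF. Family calls between stages in L-1-OL-1 were 0 with no filter, median-of-ratios scaling or quantile normalization, and 2 with only the libraries of that comparison. With quantile normalization the stage difference of gene32827 in L-1-OL-1 was 0.0296, and 10073 genes were called in the difference.

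Without both first replicates at 17 DAF, chosen after seeing the data, 9561 genes were called between stages in 86-1 and 10899 in the difference, 2 family genes in L-1-OL-1 and 2 of the other 8 between cultivars at 27 DAF, and the difference of gene43647 was -2.94. Leaving out 1 library gave 2747 to 7576, 9549 to 13561 and 4025 to 9406 calls, with 7 to 8, 0 to 2 and 6 to 8 of the family. The difference of gene43647 was then -2.41 to -1.44. The cultivar difference of gene18131 at 27 DAF ran from -0.49 to 1.27. The mean log2 ratio of the pair was 1.27 to 1.63, where 5 libraries cannot give an exact permutation p below 0.0625. Of the 8 genes most like gene43647 and gene32827, 0 and 0 stayed among the closest over 86-1 alone, and 6 and 3 without replicate 1 of L-1-OL-1 at 17 DAF. The causes were not tested.

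Replicate numbers did not pair the libraries (correlations of deviations from -0.23 to 0.12). With the number as a replicate block 6539, 14265 and 8165 genes were called, and the fall in 86-1 had limma adjusted p of 0.0170 for gene43647 and 0.00242 for gene32827. The difference of gene18131 was then not called (limma adjusted p = 0.0541).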
